A study of Mus musculus with 6 samples.

Results

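The DNA methyltransferases and the partners that help copy DNA methylation were followed here across an early and a late stage of red blood cell formation in the mouse fetal liver. The genes are Dnmt1, Dnmt3a, Dnmt3b, Dnmt3l, Uhrf1 and Hells, and the probe sets were those whose single gene symbol in the platform annotation was exactly one of these names. The rule found 16 probe sets of 45037 non-control probe sets, for 6 of 18193 genes with a probe set of 1 symbol. Dnmt3a had 5 probe sets, Dnmt1 and Hells 3 each, Dnmt3b and Uhrf1 2 each, and Dnmt3l 1. The annotation names the same source sequence for all 5 Dnmt3a probe sets, for both Dnmt3b probe sets and for both Uhrf1 probe sets. Which stretch of it each probe set reads was not compared. Probe sets of 1 gene were not taken as independent measurements, though counts of probe sets below hold several of 1 gene.

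Vertebrate DNA methylation lies mostly on cytosines of CpG dinucleotides. Dnmt3a and Dnmt3b set it on unmethylated DNA (de novo methylation), with Dnmt3l as a cofactor that lacks catalytic activity. After each round of replication Uhrf1 recognises the half-methylated CpG and recruits Dnmt1, which methylates the new strand, while the chromatin remodeller Hells (Lsh) opens nucleosomal DNA to the methylation machinery.

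S3 was the later erythroid subset and S1 the earlier one. Both came from whole fetal livers of Balb/C embryos with no genetic change or treatment, stained for CD71, Ter119 and lineage antigens and sorted by flow cytometry. Each subset was sorted on 3 separate days, giving 3 arrays for S3 and 3 for S1, and each array held amplified RNA of a pool of sorted cells. The stage label reads embryonic day 13.5 for S3 and 12.5 for S1, while the source label reads 13.5 for all 6 arrays, so age and subset cannot be told apart if the stage label holds. The design text ties these profiles to a study of DNA demethylation during erythropoiesis, and the comparison asks how the enzymes that write and copy methylation differed between the subsets. In sorted pools, fewer cells of a type and less RNA per cell cannot be told apart.

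Values were taken as log2 signals, so a difference of 1 is read as a 2-fold difference in signal. Median signal per array ran between 1.83 and 2.94, and background, the 95th percentile of 27 control probe sets for bacterial transcripts on each array, between 1.01 and 1.74. The 5′ probe set of actin read far below its 3′ probe set on 3 arrays (S3 replicate 2, S1 replicates 1 and 2), with differences between -2.59 and -2.08. On the other 3 arrays (S3 replicates 1 and 3, S1 replicate 3) the difference lay between -0.56 and -0.45. These are called the low and the high actin class, and both subsets hold arrays of both. Over all probe sets tested, the high class read higher than the low class by a median of 0.53 within S3 and 0.68 within S1. Values within a class, or with the class as a block, are given beside some of the results.

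The sorted cells were checked against marker lists. All 9 erythroid genes with a probe set were above background on every array, and their summed linear signal was 10850 to 14400 on S3 arrays and 5433 to 7342 on S1 arrays, with 3 of them called higher in S3. Of 4 progenitor genes, 3 were called lower in S3 (Kit, Gata2 and Myb), and the summed signal was 121.8 to 134.6 in S3 and 1582 to 1701 in S1. The other, Cd34, was too dim to be tested and averaged 0.12 in S3 and 1.85 in S1. Hepatocyte markers summed to between 212.2 and 851.5 in S3 and between 255.9 and 322.2 in S1, and macrophage markers to between 39.1 and 97.4 in S3 and between 31.3 and 118.9 in S1, with Adgre1 and C1qc above background on no array. Megakaryocyte markers summed to 326.2 to 346.7 in S3 and 77.0 to 173.9 in S1, with 0 of 6 genes called. Of these, Gp6 was above background on no array and was not tested. Granulocyte and monocyte markers summed to between 10.4 and 72.6 in S3 and between 17.9 and 47.6 in S1, with Elane and Ctsg above background on no array and Prtn3 called lower in S3. Lymphoid markers summed to at most 2.48 in S3 and 6.16 in S1, and endothelial and stromal markers to between 25.9 and 37.8 in S3 and between 26.8 and 34.9 in S1. The part of these cells in the results below was not tested.

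The promoters of the genes the results turn on are shown first. Members of the maintenance machinery are known targets of E2F factors, which drive genes of the DNA synthesis phase. A link between these sequences and the changes below was not tested. Each is a RefSeq window of 300 bases around an annotated transcript start on GRCm38.p6, printed 5′ to 3′ on the gene's strand. Capitals mark the E2F words searched, TTTCCCGC, TTTCGCGC, TTTGCCGC and TTTGGCGC, on either strand.
Dnmt3b, chr2:153649199-153649498, plus strand: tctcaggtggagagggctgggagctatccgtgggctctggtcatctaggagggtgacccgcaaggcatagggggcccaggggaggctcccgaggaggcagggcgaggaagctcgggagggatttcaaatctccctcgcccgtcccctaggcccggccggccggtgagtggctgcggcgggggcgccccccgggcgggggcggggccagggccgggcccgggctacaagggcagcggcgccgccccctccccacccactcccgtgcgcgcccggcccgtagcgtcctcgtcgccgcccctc
Dnmt3a, window 1 of 3, chr12:3806730-3807029, plus strand: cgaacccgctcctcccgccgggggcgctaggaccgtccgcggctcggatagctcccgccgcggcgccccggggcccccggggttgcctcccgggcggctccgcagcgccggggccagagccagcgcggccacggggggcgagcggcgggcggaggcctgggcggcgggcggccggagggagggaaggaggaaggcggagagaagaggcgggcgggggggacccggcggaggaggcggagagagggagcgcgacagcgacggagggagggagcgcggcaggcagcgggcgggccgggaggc
Dnmt1, window 3 of 3, chr9:20952574-20952873, minus strand: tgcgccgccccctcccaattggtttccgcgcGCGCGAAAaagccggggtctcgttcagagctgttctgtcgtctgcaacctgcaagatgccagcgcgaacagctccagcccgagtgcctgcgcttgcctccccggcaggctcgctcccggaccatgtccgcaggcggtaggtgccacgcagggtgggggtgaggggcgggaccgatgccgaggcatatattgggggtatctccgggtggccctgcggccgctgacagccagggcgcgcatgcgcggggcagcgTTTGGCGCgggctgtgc
Uhrf1, window 2 of 2, chr17:56304063-56304362, plus strand: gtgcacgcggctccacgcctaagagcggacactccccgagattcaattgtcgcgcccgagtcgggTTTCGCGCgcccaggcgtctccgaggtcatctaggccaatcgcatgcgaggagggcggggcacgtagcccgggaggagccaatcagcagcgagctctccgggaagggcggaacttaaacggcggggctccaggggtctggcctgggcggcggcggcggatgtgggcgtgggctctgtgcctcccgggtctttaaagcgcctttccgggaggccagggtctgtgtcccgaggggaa
Hells, chr19:38930740-38931039, plus strand: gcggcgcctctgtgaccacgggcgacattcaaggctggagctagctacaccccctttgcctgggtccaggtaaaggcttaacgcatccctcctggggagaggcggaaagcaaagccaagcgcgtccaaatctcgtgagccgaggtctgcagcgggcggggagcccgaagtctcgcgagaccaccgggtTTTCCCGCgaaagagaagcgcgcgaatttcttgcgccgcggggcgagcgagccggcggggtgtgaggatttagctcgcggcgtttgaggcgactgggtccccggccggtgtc
An E2F word stood in 3 of the 13 windows of the 6 genes, against 2.27% of all 32841 mouse windows of the same length. Each of these words holds a CpG, and the windows compared were not matched for CpG. Of the Dnmt1 and Uhrf1 windows, the one printed is the one that held a word. The Dnmt1 window held TTTCGCGC on the opposite strand at -219 to -212 and TTTGGCGC at 34 to 41, counted from the start. The Uhrf1 window held TTTCGCGC at -185 to -178 and the Hells window TTTCCCGC at -62 to -55. The 3 Dnmt3a windows, the Dnmt3b window and the 3 Dnmt3l windows held none of these words. GATA words (GATA after A or T and before A or G, on either strand), named for the erythroid GATA factors, stood in 1 of 13 windows, an upstream Dnmt1 window, and in 29.8% of all windows. The printed windows were rich in CpG, with 30 in Dnmt3b, 46 in Dnmt3a, 33 in Dnmt1, 33 in Uhrf1 and 34 in Hells, where the median over all windows was 7. Windows of these genes not printed held 47 and 18 CpG for Dnmt3a, 2 and 12 for Dnmt1 and 12 for Uhrf1. The 3 Dnmt3l windows held 6, 4 and 3 CpG. A match here is a match of letters and no evidence of binding.

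Among the writers of new methylation, Dnmt3b and Dnmt3a fell steeply in S3, the chromatin remodeller Hells fell with a smaller fold, and no probe set of Dnmt1 or Uhrf1 was called in either direction. Of the 16 probe sets, 15 were bright enough to test, and 6 were lower in S3 and 0 higher at an adjusted p under 0.05 (limma, Benjamini-Hochberg over all 27022 probe sets tested). Across all probe sets tested, 6.66% were called lower and 1.61% higher. All 6 calls lay in 3 genes, with 5 of the 7 tested Dnmt3a and Dnmt3b probe sets and 1 of the 3 Hells probe sets. Taken by gene, 3 of the 5 tested were called lower on their brightest probe set, where 9.62% of all genes were. At an unadjusted p under 0.05, 7 of the 15 were lower and 0 higher. Of all 27022 probe sets tested, 5991 were under that cut in either direction. On 7 of the 15, every S3 array lay below every S1 array, which was so for 22.9% of all probe sets tested. All probe sets tested had a median change of -0.24, and this median was near 0 after each array was centred on its median. That centring left 5 of the 6 members' calls. Over all 27022 probe sets tested it called 1144 lower, against 1801 without it.

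**Figure D1:**
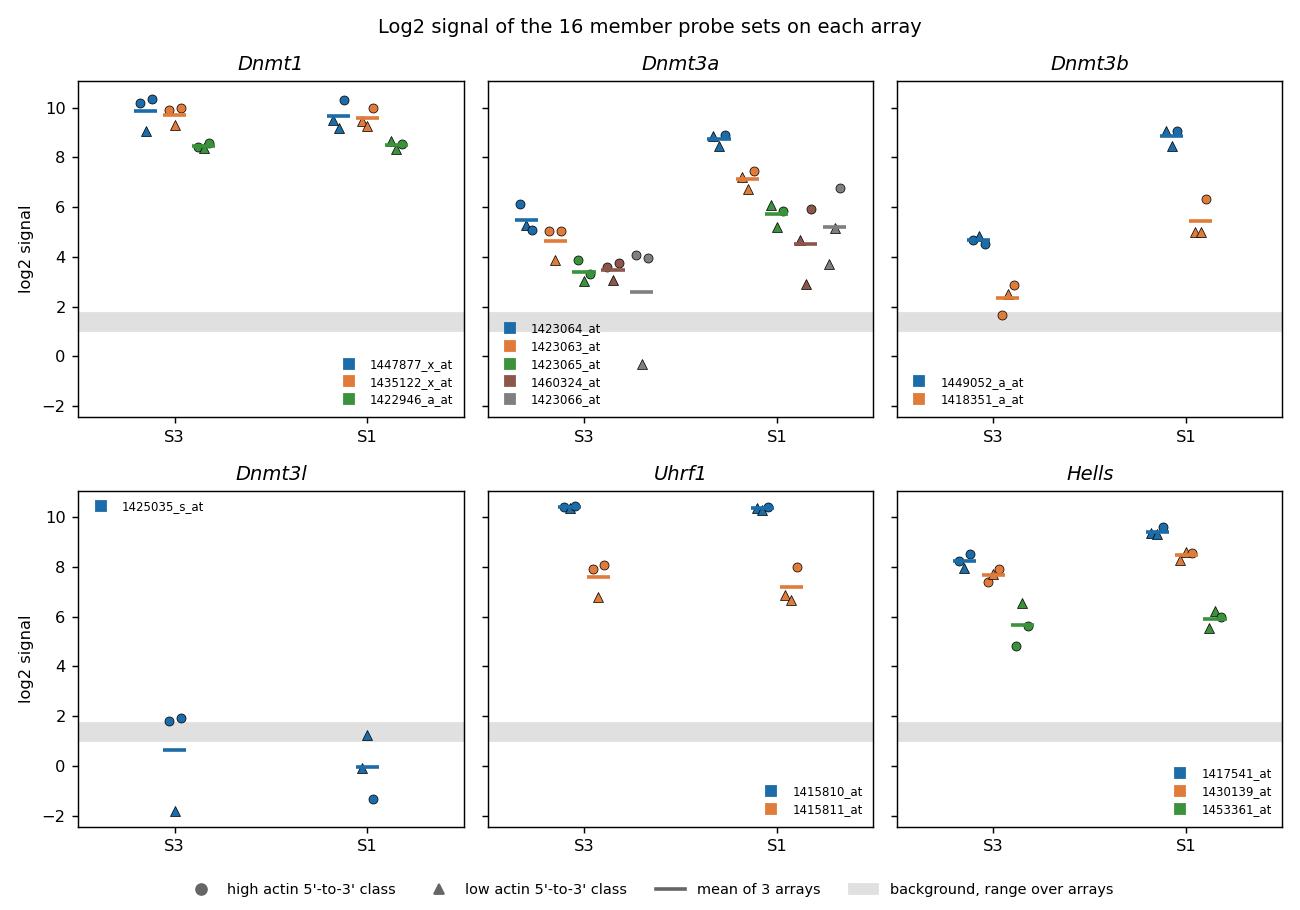
Log2 signal (vertical axis) of each of the 16 probe sets on each of the 6 arrays, with S3 left of S1 in each of the 6 panels. Circles are arrays of the high and triangles arrays of the low actin class, bars are means of 3 arrays, and the grey band is the range of background over arrays; Dnmt3b and the brighter Dnmt3a probe sets lie lower in S3, while the Dnmt1 and Uhrf1 probe sets overlap between subsets.

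Dnmt3b, which writes methylation at repeats and silenced promoters in the embryo, had the most negative change of the 5 genes tested. Its brighter probe set (1449052_a_at) read 4.67, 4.84 and 4.50 on S3 replicates 1 to 3, against 9.04, 8.45 and 9.05 on S1 replicates 1 to 3. All S3 arrays lay far below all S1 arrays, with a gap of 3.61 between the highest S3 and the lowest S1 array. The means were 4.67 ± 0.17 in S3 and 8.85 ± 0.34 in S1 (SD, n = 3 arrays each), a change of -4.18 ± 0.35 (SE; adjusted p = 0.00423 by limma). This is an 18.1-fold lower signal in S3, with a 95% confidence interval of 10.3 to 31.6. Within the high actin class S3 minus S1 was -4.46, and within the low class -3.91. When each gene was represented by its brightest tested probe set, 54 of 11959 genes (0.452%) fell more steeply.

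The dimmer Dnmt3b probe set (1418351_a_at) read 1.65, 2.49 and 2.87 in S3, against 5.01, 5.00 and 6.31 in S1. It stayed above background on every array and again separated the subsets without overlap. Its change was -3.10 ± 0.58 (adjusted p = 0.0206 by limma). Within the high actin class S3 minus S1 was -4.05, and within the low class -2.52. The call was lost when S3 replicate 1 or 3 or any S1 replicate was left out, with adjusted p between 0.0512 and 0.0801.

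Dnmt3a, the other de novo enzyme and one that blood stem cells are known to need, was also lower in S3. Its brightest probe set (1423064_at) read 6.13, 5.28 and 5.08 in S3, against 8.85, 8.44 and 8.92 in S1. The subsets did not overlap, and S3 replicate 1 was the highest of its group. The change was -3.24 ± 0.38 (adjusted p = 0.00566 by limma), a 9.43-fold lower signal in S3 with a 95% confidence interval of 5.09 to 17.5. It was -3.31 within the high actin class and -3.36 within the low class. Of 11959 genes, 192 (1.61%) fell more steeply. Fitted on the low-class arrays alone, this probe set and the brighter Dnmt3b one each had an adjusted p of 0.0693, and 0 probe sets of any gene were called there by limma (5893 at an unadjusted p under 0.05).

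A further pair of Dnmt3a probe sets was called in the same direction. Probe set 1423063_at read 5.03, 3.86 and 5.06 in S3, against 7.22, 6.74 and 7.45 in S1, a change of -2.49 ± 0.48 (adjusted p = 0.0231). That change was -2.41 within the high actin class and -3.12 within the low class. Probe set 1423065_at read 3.89, 3.04 and 3.30 in S3, against 6.10, 5.19 and 5.83 in S1, a change of -2.29 ± 0.48 (adjusted p = 0.0303). Both separated the subsets on every array. Leaving out S3 replicate 1 or 3 or any S1 replicate ended the first call (adjusted p 0.0596 to 0.0908), and leaving out any of the 6 arrays ended the second (adjusted p 0.0648 to 0.123).

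The remaining Dnmt3a probe sets were not called. Probe set 1460324_at read 3.58, 3.07 and 3.75 in S3, against 4.66, 2.92 and 5.93 in S1, and the subsets overlapped through the low-class array S1 replicate 2 (change -1.04 ± 0.77, adjusted p = 0.521). Probe set 1423066_at read 4.09, -0.30 and 3.97 in S3, against 3.70, 5.15 and 6.75 in S1 (change -2.61 ± 1.28, adjusted p = 0.294). Its S3 replicate 2 value was under background and S1 replicate 1 lay below 2 of the S3 arrays. This probe set read 4.33 higher in the high than in the low class within S3 and 2.32 higher within S1, and with the class as a block its change was -3.72 (adjusted p = 0.0029). Without S3 replicate 2, the array under background, the change was -1.17 (adjusted p = 0.507).

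Dnmt3l, the cofactor without catalytic activity, was at the edge of detection. Its single probe set read 1.82, -1.82 and 1.93 in S3, against -0.09, 1.25 and -1.32 in S1. It was above background on 2 S3 arrays and 1 S1 array, lay under the filter on dim probe sets and was not tested. Fitted without that filter, it gave a change of 0.70 ± 1.18 (adjusted p = 0.869 by limma).

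Dnmt1, the maintenance methyltransferase, gave no call on any of its 3 probe sets. The brightest (1447877_x_at) read 10.17, 9.06 and 10.33 in S3, against 9.52, 9.17 and 10.29 in S1. The subsets overlapped, and within each the high-class arrays were the brighter ones, by 1.19 in S3 and 0.95 in S1. The change was 0.20 ± 0.39 (95% confidence interval -0.71 to 1.10, adjusted p = 0.849 by limma), and with the class as a block it was -0.16 (adjusted p = 0.410). Probe set 1435122_x_at read 9.88, 9.29 and 9.99 in S3, against 9.46, 9.24 and 9.99 in S1, a change of 0.15 ± 0.25 (adjusted p = 0.814). Probe set 1422946_a_at moved little with the class and read 8.42, 8.39 and 8.57 in S3, against 8.67, 8.32 and 8.54 in S1. Its change of -0.05 ± 0.21 had a 95% confidence interval of -0.52 to 0.43 (adjusted p = 0.937). The intervals do not reach the falls of Dnmt3a and Dnmt3b, and they do not exclude smaller changes. The sign of the first 2 turned with the class block, and that of the third turned with median centring.

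Uhrf1, which guides Dnmt1 to replicated DNA, had overlapping values on both of its probe sets. Probe set 1415810_at read 10.39, 10.35 and 10.45 in S3, against 10.36, 10.28 and 10.40 in S1, a change of 0.05 ± 0.09 (95% confidence interval -0.17 to 0.26, adjusted p = 0.847 by limma). These values overlapped and lay near the top of the arrays, whose brightest gene probe sets read 11.37 to 11.60; whether signal was compressed there was not tested. Probe set 1415811_at read 7.92, 6.79 and 8.08 in S3, against 6.87, 6.65 and 8.01 in S1, with a change of 0.42 ± 0.50 (adjusted p = 0.722). Its high-class arrays read higher by 1.21 within S3 and by 1.25 within S1, and the change was 0.02 with the class as a block. All 5 Dnmt1 and Uhrf1 probe sets read higher in the high class within both subsets. So did all 5 Dnmt3a probe sets and the brightest Hells probe set. The median over all probe sets tested was also higher there, by 0.53 within S3 and 0.68 within S1.

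Hells, the remodeller, was lower in S3 on its brightest probe set. This probe set (1417541_at) read 8.22, 7.96 and 8.52 in S3, against 9.35, 9.30 and 9.58 in S1. The subsets did not overlap, and the change was -1.18 ± 0.21 (adjusted p = 0.0181 by limma), a 2.26-fold lower signal with a 95% confidence interval of 1.61 to 3.18. It was -1.21 within the high class and -1.37 within the low class. A fall of this size was common, since 2150 of 11959 genes (18.0%) fell more. The call was lost after median centring (-0.94, adjusted p = 0.0911), without the intensity trend (adjusted p = 0.0796) and for the mean of the 3 probe sets (-0.74, adjusted p = 0.158). It was also lost without S3 replicate 1 (adjusted p = 0.0654), S1 replicate 1 (adjusted p = 0.0792), S1 replicate 2 (adjusted p = 0.0739) or S1 replicate 3 (adjusted p = 0.0520).

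The other Hells probe sets, for which the annotation names other source sequences, were not called. Probe set 1430139_at read 7.41, 7.73 and 7.90 in S3, against 8.28, 8.60 and 8.55 in S1. These values did not overlap, and the change was -0.79 ± 0.25 (adjusted p = 0.103), or -0.80 (adjusted p = 0.0138) with the class as a block. With the class block and median centring together it was -0.35 (adjusted p = 0.415). Probe set 1453361_at read 4.84, 6.55 and 5.62 in S3, against 5.53, 6.22 and 5.995 in S1, with a change of -0.24 ± 0.53 (adjusted p = 0.864). With the class as a block 8 of the 15 probe sets were lower and 0 higher, where 28.2% of all probe sets were called lower in that fit.

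**Figure D2:**
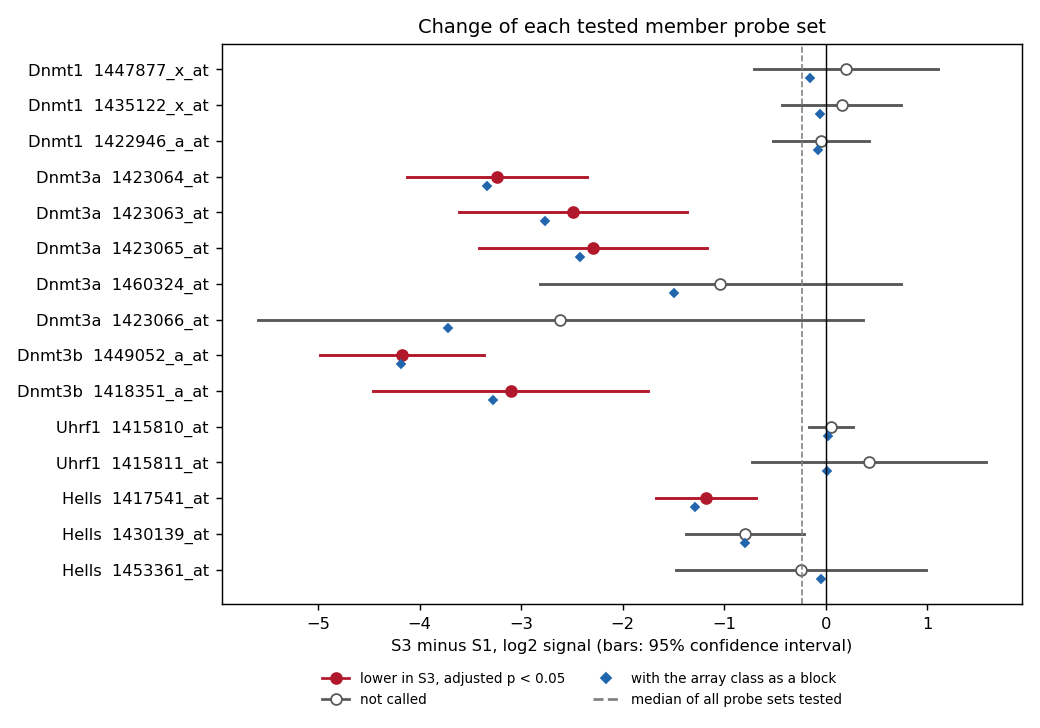
S3 minus S1 in log2 signal (horizontal axis) for each of the 15 tested probe sets, with 95% confidence intervals as bars, filled red points where the adjusted p was under 0.05, and diamonds for the fit with the actin class as a block. The 6 called probe sets belong to Dnmt3a, Dnmt3b and Hells, and the Dnmt1 and Uhrf1 intervals span 0; the dashed line is the median of all probe sets tested, -0.24.

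**Figure D3:**
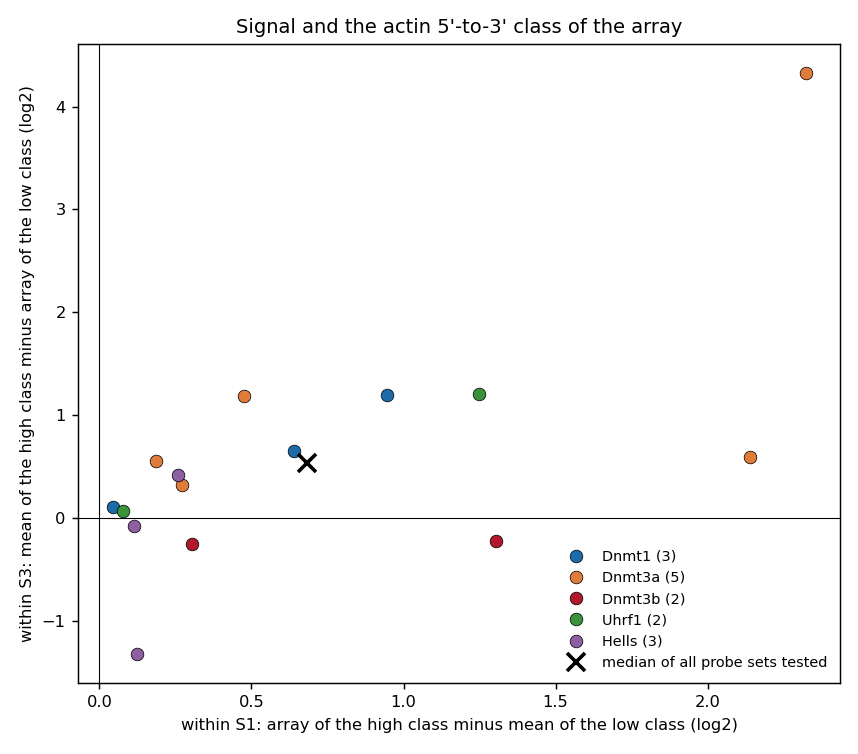
High minus low actin class in log2 signal, within S3 (vertical axis) and within S1 (horizontal axis), for each of the 15 tested probe sets. The 5 Dnmt1 and Uhrf1 points, the 5 Dnmt3a points and that of the brightest Hells probe set lie above 0 on both axes. The cross is the median of all probe sets tested (0.53 within S3, 0.68 within S1).

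Differences between 2 members on the same array do not depend on a constant added to all values of that array. The level of 1 probe set says nothing against that of another, so the change of the difference between subsets is what these values show. Dnmt3b minus Dnmt1 was -5.50, -4.22 and -5.83 in S3, against -0.48, -0.71 and -1.24 in S1, a shift of -4.37. The corresponding shifts were -3.43 for Dnmt3a minus Dnmt1, -1.37 for Hells minus Dnmt1 and -1.22 for Hells minus Uhrf1. Within each subset Dnmt3b minus Dnmt1 was less negative on low-class arrays than on high-class ones. Dnmt3b minus Dnmt3a averaged -0.83 ± 0.55 in S3 and 0.11 ± 0.09 in S1 (SD, n = 3 arrays each), a shift of -0.94, or -0.62 without S3 replicate 1. In all 5 pairs every S3 array lay below every S1 array, and the two-sided exact permutation p was 0.1 for each before adjustment over the 5 pairs, the smallest that 3 against 3 arrays allow, so no pair could pass 0.05. This separation held for the brightest probe sets. With the mean of the tested probe sets of each gene, Hells minus Dnmt1 shifted by -0.84 and Hells minus Uhrf1 by -0.97, each with an exact permutation p of 0.2, while the other 3 pairs kept a p of 0.1.

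**Figure D4:**
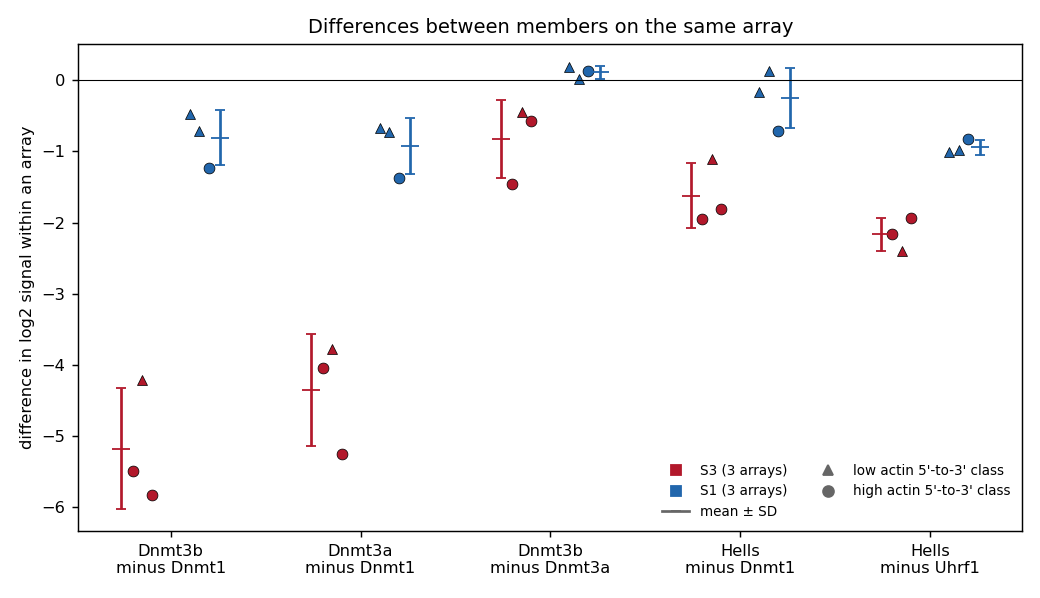
Difference in log2 signal between the brightest probe sets of 2 members on the same array (vertical axis) for 5 pairs, with S3 in red left of S1 in blue. Points are arrays, shaped by actin class, and crosses with bars are means with SD; in each pair the S3 arrays lie below the S1 arrays, with a shift of -4.37 for Dnmt3b minus Dnmt1.

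Genes that work beside the members were grouped in 5 lists, each gene by its brightest tested probe set. Over all 11959 genes, 9.62% were called lower and 2.02% higher, and the median change was -0.33. Of 14 maintenance partners, 1 was lower and 0 higher (median -0.22). This was the histone deacetylase Hdac2, which averaged 8.52 ± 0.29 in S3 and 9.48 ± 0.19 in S1 (change -0.97, adjusted p = 0.0349). Ehmt2 (-2.37, adjusted p = 0.0911) and Cdca7l (-1.51, adjusted p = 0.0607) were not called and were picked out after their values were seen. On both, every S3 array lay below every S1 array. With median centring this list had 2 lower genes, these 2, and 0 higher (limma, adjusted p = 0.0415 and 0.0403). With the actin class as a block 6 were lower and 2 higher. That block called 4342 of all 11959 genes lower and 597 higher, and median centring called 707 lower and 370 higher. Of 17 tested genes that shape where new methylation is set, 4 were lower and 0 higher (median -0.57). The co-repressor Trim28, which KRAB zinc finger proteins recruit, averaged 8.92 ± 0.16 in S3 and 10.21 ± 0.17 in S1 (change -1.29, adjusted p = 0.00587). Kdm2b, a demethylase of histones that binds CpG islands, changed by -0.99 (adjusted p = 0.00874), the heterochromatin protein Cbx1 by -0.80 (adjusted p = 0.0140) and the histone methyltransferase Ehmt1 by -1.59 (adjusted p = 0.0378). For Cbx1, 2 of 4 other tested probe sets had the opposite sign, and 0 of the 4 were called lower. Of the other tested probe sets, 1 of 2 was called lower for Hdac2 and 1 of 1 each for Trim28 and Kdm2b.

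Of 9 tested genes that supply methyl groups, 3 were lower and 0 higher (median -0.69). The folate enzyme Mthfd1 averaged 8.89 ± 0.33 in S3 and 10.24 ± 0.15 in S1 (change -1.35, adjusted p = 0.00881). Ahcy, which clears the product of every methyl transfer, changed by -0.56 (adjusted p = 0.0280), and the serine hydroxymethyltransferase Shmt2 by -0.84 (adjusted p = 0.0292). Among other tested probe sets, 0 of 3 were called lower for Shmt2 and 1 of 2 for Mthfd1, all with the same sign. Of 14 tested genes of demethylation, 3 were lower and 0 higher (median -0.87). Idh1, which makes the 2-oxoglutarate that Tet enzymes use, averaged 7.99 ± 0.15 in S3 and 9.29 ± 0.11 in S1 (change -1.31, adjusted p = 0.00984). The cytidine deaminase Apobec3 changed by -1.92 (adjusted p = 0.0173) and the uracil glycosylase Ung by -0.99 (adjusted p = 0.0349). Gadd45a, a stress gene tied to DNA repair and demethylation, had the highest change in the list and was picked out after its values were seen. It read 9.37, 7.93 and 9.39 in S3, against 6.35, 6.80 and 7.98 in S1, and the subsets overlapped (change 1.85 ± 0.54, adjusted p = 0.0815). It was called higher with median centring (2.09, adjusted p = 0.00893), where the list had 0 lower and 1 higher gene, and with the class as a block (1.38, adjusted p = 0.000893). It was also called without S3 replicate 2 (adjusted p = 0.0311) or S1 replicate 3 (adjusted p = 0.0416). Without S3 replicate 1 or 3, or S1 replicate 1 or 2, Gadd45a was not called (limma, adjusted p 0.219 to 0.255). After median centring none of the 11 genes called lower was called (limma, adjusted p 0.0618 to 0.674), and 5 of the 11 calls were lost with quantile normalization. All 11 were called with the class as a block (adjusted p 0.000349 to 0.00441), a fit that called 36.3% of all genes lower, and 6 of the 11 were lost when that block was combined with median centring (adjusted p up to 0.877).

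DNA replication genes, whose products act at the forks where Dnmt1 and Uhrf1 work, gave 0 calls among 26 tested genes in either direction (limma, with 0 lower and 1 higher at an unadjusted p under 0.05). At that cut 2799 of all 11959 genes were lower and 614 higher. Changes of the 26 replication genes ran between -0.24 and 0.83 with a median of 0.12, and all 26 lay above the median of all genes. The helicase subunits Gins4 (0.44, adjusted p = 0.222) and Gins1 (0.21, adjusted p = 0.419) had the smallest p in the list. With the actin class as a block 1 of the 26 was lower and 1 higher, where 4342 and 597 of all 11959 genes were. Some replication genes lay near the top of the arrays, such as Rrm2, which averaged 10.72 in S3 and 10.61 in S1. Whether signal was compressed there was not tested.

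**Figure D5:**
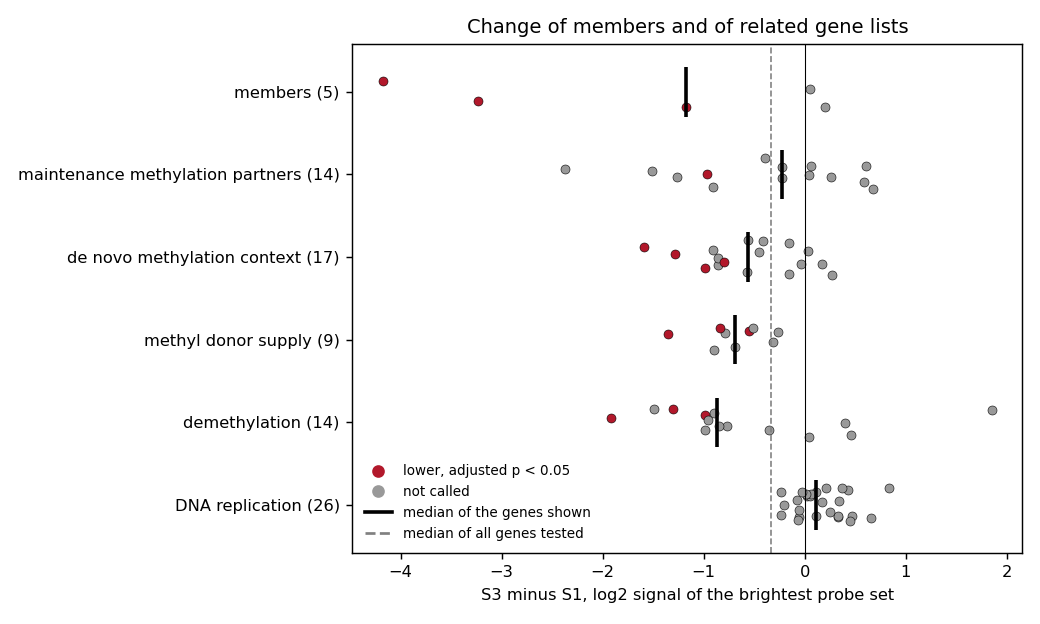
S3 minus S1 in log2 signal (horizontal axis) of the brightest probe set of each tested gene, for the 5 tested members and 5 gene lists (numbers of genes in brackets). Red points were called lower, black bars are list medians and the dashed line is the median of all genes, -0.33; the 26 replication genes lie between -0.24 and 0.83.

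The genes whose pattern over the 6 arrays was most like that of each member were found by the root mean square difference of log2 signals, after each gene was centred on its own mean. Nearest to Dnmt3b were Pank1 (0.146), Aff3 (0.241) and Repin1 (0.248), where the median over all genes was 2.01. Pank1, a pantothenate kinase, averaged 2.69 ± 0.31 in S3 and 6.82 ± 0.33 in S1, and Aff3 was above background on no S3 array. Nearest to Dnmt3a were Pcbp4 (0.179) and the small GTPases Rab4a (0.190) and Rab32 (0.197), against a median of 1.57. Nearest to Hells were Zfp318 (0.0446), D10Wsu102e (0.0488) and the glucocorticoid receptor Nr3c1 (0.0606), against a median of 0.683. Nr3c1 averaged 7.65 ± 0.30 in S3 and 8.89 ± 0.20 in S1. Nearest to Dnmt1 were C1galt1 (0.0841), Pik3cb (0.0894) and Tlcd4 (0.0932), against a median of 0.660, and nearest to Uhrf1 were Alkbh5 (0.0246), Becn1 (0.0390) and Mau2 (0.0397), against a median of 0.636. None of these last 6 genes was called. These are descriptions over 6 arrays that share their scaling and actin class.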

How the data were processed

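Total RNA of sorted S3 and S1 cells was amplified with the Ovation system, labelled with biotin and hybridised to Affymetrix Mouse Genome 430 2.0 arrays, per the labels. The authors computed MAS5 signals and normalized them to 18S ribosomal RNA, Gapdh and actin probe sets, per the design text. They deposited them as log values, read here as log2 and otherwise used as they are. No source used here gives the log base, and the usual range of MAS5 signals points to 2. Of 45101 probe sets, 64 were controls and 34958 had 1 symbol (932 several), and only these were named.

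Probe sets with a mean above the 40th percentile were fitted with limma 3.58.1 (R 4.3.3; two-sided, lmFit and eBayes with trend); p-values were adjusted by Benjamini-Hochberg across 27022 probe sets and called under 0.05. Residual degrees of freedom were 4 and prior ones 3.76. The number of arrays limits the precision. Arrays were grouped by title. The actin class was split at -1.5.

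The members and gene lists were chosen with earlier results of these data known. Named were all member probe sets, up to 4 called genes per list by smallest p (2 where none was called) and the 3 genes nearest to each member. Gadd45a, Ehmt2 and Cdca7l were named besides, after their values were seen. Zfp57 and Dppa3 were under the filter; Mat2a, Tdg, Chaf1a and some other listed genes are not reported here. Alternatives changed the scaling, filter, variance model, unit of testing, blocks and arrays. The fit was tested on simulated data with independent noise for each probe set and array. That simulation held no actin class effect, so it says nothing of the fit under such an effect.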

Additional observations from a re-analysis of the deposited data

How the results depend on the processing

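The brightest Dnmt3b and Dnmt3a probe sets were called in 19 of 20 other settings each, and Hells in 12 of 20. The exception for the first 2 was the low actin class alone, with 1 S3 and 2 S1 arrays, where 0 probe sets were called lower or higher (limma; 5893 at an unadjusted p under 0.05), so no member and no list gene was called there. Over all probe sets, 1801 were lower and 436 higher, and the counts were 1144 and 748 with median centring, 1142 and 254 without an intensity trend, 991 and 241 with the mean of probe sets per gene, 7618 and 1125 with the actin class block and 7040 and 1170 in the high class alone. That last fit had 2 S3 arrays and 1 S1 array, and in both fits on 1 class the lone array is assumed to vary like the other subset. Calls higher were 1097 with quantile normalization and 1617 with the class block and median centring. The share of calls that were higher was 19.5%, against 39.5% with median centring, 43.7% with quantile normalization and 38.0% with the class block and median centring. Leaving out 1 array gave 314 to 1282 lower and 95 to 488 higher calls, and 2 to 5 of the 6 lower member calls; the last was 2 without S3 replicate 1 or any S1 replicate, 5 without S3 replicate 2 and 3 without S3 replicate 3. List genes called lower numbered 11, and 2 with median centring, 3 without an intensity trend, 32 with the class block, 31 in the high class alone and 1 to 8 with 1 array left out. List genes called higher numbered 0, and 1 with median centring, 3 with quantile normalization, 1 with the brightest probe sets only, 4 with the class block, 5 with the class block and median centring, 2 in the high class alone and 0 to 1 with 1 array left out. Of the 11 list calls, 7 were lost without S3 replicate 1, 3 without S3 replicate 2, 7 without S3 replicate 3, 10 without S1 replicate 1, 9 without S1 replicate 2 and 4 without S1 replicate 3. With the mean of probe sets per gene Cbx1 changed by -0.24, and with the class block and median centring Ahcy changed by -0.08.

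With the replicate number as a block, 2308 probe sets were lower and 634 higher, the 6 member calls stood, the Dnmt3b adjusted p was 0.00887 and 1 list gene was called higher. Same-numbered arrays deviated from their subset means with correlations of 0.02, 0.39 and 0.41, and differently numbered ones with -0.55 to 0.39. The arrays numbered 2 share an actin class, as do those numbered 3. These values therefore cannot tell a pairing from the class, and the numbers were not taken to pair the arrays.

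Signs turned for values near 0. Dnmt1 1447877_x_at changed by -0.16 with the class block, -0.28 in the low and -0.036 in the high class alone, and by -0.0483 to 0.59 with 1 array left out. Dnmt1 1435122_x_at gave -0.0603, -0.0646 and -0.056 in these 3 fits and -0.0065 to 0.37 with 1 array left out. Dnmt1 1422946_a_at gave 0.18 with median centring, 0.25 with quantile normalization, 0.37 with the class block and median centring, and -0.14 to 0.0295 with 1 array left out. Uhrf1 1415811_at gave -0.0052 in the high class alone. Hells 1453361_at gave 0.0813 with quantile normalization, 0.40 with the class block and median centring, 0.68 in the low class alone and -0.69 to 0.17 with 1 array left out. Among the nearest genes, C1galt1 gave -0.0585 with the class block and -0.13 in the low class alone. Pik3cb gave -0.14 with the class block, -0.22 and -0.0693 in the low and high class, and -0.0528 to 0.68 with 1 array left out. Tlcd4 gave -0.085 with the mean of probe sets, -0.27 with the class block, -0.29 and -0.26 in the low and high class, and -0.13 to 0.52 with 1 array left out. Becn1 gave 0.23 with median centring, 0.20 with quantile normalization, 0.0722 with the mean of probe sets, 0.42 with the class block and median centring, and -0.0537 to 0.03 with 1 array left out. Mau2 gave -0.0144 with the class block, -0.0011 and -0.0278 in the low and high class, and -0.0362 to 0.0493 with 1 array left out. The cause of these turns was not tested.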
